A study of Saccharomyces cerevisiae with 4 samples.

Results

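The 10 genes described here encode the yeast ribonucleotide reductase, its regulators in the DNA damage response, and the damage-induced repair proteins Din7 and Mag1. They are a fixed list of named genes, put together with earlier results of these data known and looked up by systematic identifier among the 6418 genes of the tables: RNR1 (YER070W), RNR2 (YJL026W), RNR3 (YIL066C), RNR4 (YGR180C), HUG1 (YML058W-A), SML1 (YML058W), DUN1 (YDL101C), RFX1 (YLR176C), DIN7 (YDR263C) and MAG1 (YER142C). All 10 passed the minimum of a mean of 10 counts over the libraries, as did 6010 of the 6418 genes. RNA-seq was carried out on 4 strains of S. cerevisiae derived from CEN.PK2-1C, a laboratory strain of mating type MATa that carries trp1-289, ura3-52, leu2-3_112 and his3D1 together with SUC2 and MAL2-8c. Each strain constitutively expresses a nuclease-dead Cas12 protein and MCP-VP64, a coat protein of the MS2 hairpin fused to the VP64 activation domain. byMM1827 has denAsCas12a and scaffold RNAs (ScRNAs), guide RNAs with MS2 hairpins that recruit MCP-VP64, directed to the HED1 promoter and to a synthetic promoter in front of yEGFP, and byMM1777 is its control. byMM1832 has dCas12e and ScRNAs directed to the GAL7 promoter and to the same kind of synthetic promoter, and byMM1736 is its control. Neither control has the ScRNA plasmid, which is integrated at HIS3, so a pair differs by the ScRNAs and by a functional HIS3 gene. No strain was treated with a DNA-damaging agent, as far as the labels and the methods say.

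There was 1 library per strain. No difference below has a replicate check, no p-value was computed, and the 95% Clopper-Pearson intervals from the counts cover counting error only and compare libraries, not conditions. The libraries held from 37275559 (byMM1777) to 54013763 counts (byMM1827), of which the 10 genes took from 0.174% (byMM1832) to 0.259% (byMM1777). HIS3 was at 207 TPM in byMM1777 and 255 TPM in byMM1736 against 5309 TPM in byMM1827 and 2770 TPM in byMM1832. The targeted HED1 was at 15.8 TPM in byMM1777 and 30.3 TPM in byMM1827, and the targeted GAL7 at 2.05 TPM in byMM1736 and 3.53 TPM in byMM1832. GAL7 was also 1.67-fold higher in byMM1827 than in byMM1777 (interval 1.25 to 2.25), where no ScRNA is directed to it. The MATa markers STE2, MFA1, MFA2 and BAR1 were between 141 and 1670 TPM, whereas the MATalpha markers STE3, MF(ALPHA)1 and MF(ALPHA)2 were between 5.55 and 23.2 TPM. The median gene was lower in byMM1827 than in byMM1777 by 0.16 on the log2 scale (log2 ratio -0.16), while the dCas12e pair had a median of 0.03, so ratios are also given relative to the median gene below.

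Ribonucleotide reductase converts ribonucleotides into the deoxyribonucleotides from which DNA is made. In yeast the large subunit is Rnr1, or its damage-induced paralog Rnr3, and the small subunit is a dimer of Rnr2 and Rnr4. When DNA is damaged or replication stalls, the kinases Mec1, Rad53 and Dun1 are activated in turn, the inhibitor Sml1 is degraded, and the repressor Rfx1 (Crt1), which acts with Tup1 and Cyc8, leaves the promoters of RNR2, RNR3, RNR4 and HUG1. The genes of this pathway are classical reporters of DNA damage in yeast.

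The promoters are described first, by the short sites that each holds. The 600 bases before each start codon in the S288C reference R64 were searched on both strands for GTTGCC, called core site below, which is part of the X-box bound by Rfx1, and for ACGCGT, the site of MBF, the factor of late G1 transcription. The core site occurred in 5 of the 10 promoters, those of RNR1, RNR2, RNR3, RNR4 and HUG1, and in 16.6% of 5974 promoters of coding genes. ACGCGT occurred in 4 of the 10, those of RNR1, RNR3, DUN1 and DIN7, and in 6.34% of all. A full X-box, searched as GTNNCC followed after 2 bases by GGNAAC, was found in 0 of the 10 and in 0.218% of all promoters. This search took only these exact letters at this spacing and would miss X-boxes that depart from them. The 0 therefore does not mean that the promoters lack sites for Rfx1. Overlaps of the core site with the full X-box were allowed, and SML1, RFX1 and MAG1 had neither of the shorter sites. These are matches of letters in the reference and not measured binding, and the strains studied are not S288C. The windows below run 5′ to 3′ on the strand of the gene, with the core site or its reverse complement in capitals. They are the 3 promoters of RNR2 (chrX:391903-392067, plus strand), HUG1 (chrXIII:158522-158624, plus strand) and RNR3 (chrIX:240949-241004, minus strand), shown because the first 2 genes and the third behaved differently in the dCas12e pair.
RNR2: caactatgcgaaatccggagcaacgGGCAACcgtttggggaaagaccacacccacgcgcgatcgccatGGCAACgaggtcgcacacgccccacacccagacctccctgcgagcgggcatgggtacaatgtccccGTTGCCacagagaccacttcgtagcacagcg
HUG1: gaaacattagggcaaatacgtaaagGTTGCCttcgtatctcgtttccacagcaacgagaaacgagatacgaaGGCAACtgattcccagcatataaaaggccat
RNR3: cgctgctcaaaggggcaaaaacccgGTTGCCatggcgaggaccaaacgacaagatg
RNR2 had 3 core sites, from 361 to 470 bases before the start codon, HUG1 had 2, at 160 and 207 bases, and RNR3 had 1 at 265 bases. The RNR4 promoter had 1 core site at 380 bases, and that of RNR1 1 at 163 bases.

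RNR1 had 4 copies of ACGCGT between 300 and 486 bases before its start codon, the most of the 10 genes. They are shown in capitals in the window chrV:298433-298674 (plus strand), because RNR1 had the largest range of levels among the members.
RNR1: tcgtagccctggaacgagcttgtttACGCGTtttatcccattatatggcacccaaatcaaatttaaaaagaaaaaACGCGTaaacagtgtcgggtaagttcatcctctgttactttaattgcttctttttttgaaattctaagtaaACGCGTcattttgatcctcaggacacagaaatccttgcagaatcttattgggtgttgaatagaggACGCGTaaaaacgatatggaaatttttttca
RNR3 had 2 copies, and DUN1 and DIN7 had 1 each.

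Reads of the 10 genes could be told apart by sequence. None of the 10 overlaps another annotated gene in R64, and from 99.7% to 100% of the 31-base words of each coding sequence occur once in the genome. RNR1 (chrV:298950-301616) and RNR3 (chrIX:238099-240708) encode proteins of 888 and 869 residues that are 81.9% identical, and their coding sequences share 8 words of 31 bases. RNR2 (chrX:392404-393603) and RNR4 (chrVII:855264-856301) encode proteins that are 55.1% identical and share no such word. HUG1 (chrXIII:158760-158966) ends 416 bases before SML1 (chrXIII:159383-159697) on the same strand, and the aligned parts of their small proteins are 28.8% identical. DUN1 is at chrIV:280307-281848, RFX1 at chrXII:507797-510232, DIN7 at chrIV:994242-995534 and MAG1 at chrV:455146-456036. Each of the 10 coding sequences is 1 uninterrupted part.

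Levels per length spanned a wide range and kept nearly the same order in all libraries. SML1 was the most abundant of the 10 in each library, followed by RNR4, RNR2 and HUG1, and RFX1 was the least abundant. The order changed only in byMM1832, where DUN1 stood above MAG1 and MAG1 above RNR1. There, DUN1 at 24.1 TPM, MAG1 at 23.8 TPM and RNR1 at 23.2 TPM were close neighbours. In the other libraries RNR1 stood above MAG1 and MAG1 above DUN1. Both denAsCas12a libraries were above both dCas12e libraries for 8 of the 10 genes, the exceptions being RNR2 and HUG1, and for 32.9% of all genes tested. Summed over the 10 genes, the level was 5251 TPM in byMM1777, 4531 TPM in byMM1827, 4364 TPM in byMM1736 and 3568 TPM in byMM1832, most of it SML1.

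**Figure D1:**
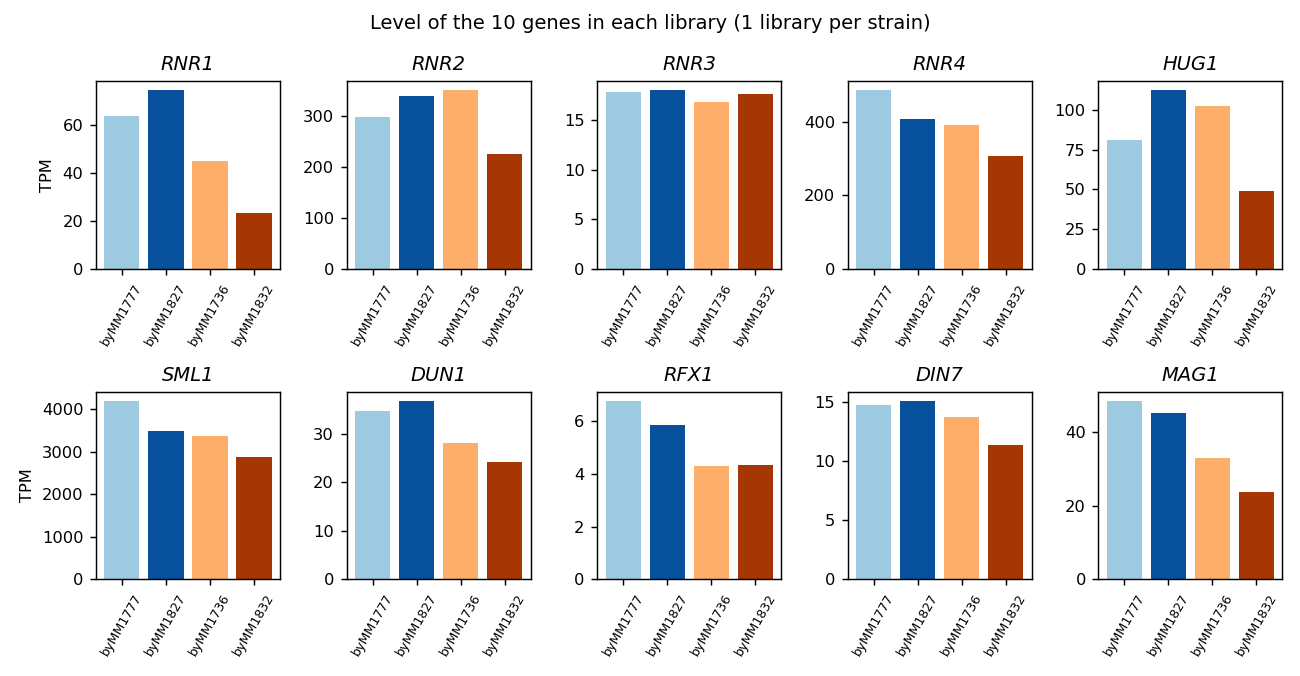
Levels of the 10 genes in TPM (vertical axes, each from 0) in the 4 libraries, 1 bar per library, with controls in the light colours and strains with ScRNAs in the dark ones. byMM1832 is the lowest of the 4 in 8 of 10 panels, the exceptions being RNR3 and RFX1.

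In the dCas12e pair, the ScRNA strain byMM1832 had lower levels of the large subunit RNR1, the small subunit RNR2 and the inhibitor HUG1 than its control, and a level of the damage-induced RNR3 close to that of the control. 1 of the 10 genes (HUG1) was at least 2-fold lower and 3 of 10 (RNR1, RNR2 and HUG1) were at least 1.5-fold lower in byMM1832, against 2.65% and 6.97% of the 6009 genes with a ratio. None of the 10 was 1.5-fold or 2-fold higher, against 4.48% and 0.849% of these genes. The median log2 ratio of the 10 was -0.31, and 9 of 10 were below the median gene. In the denAsCas12a pair, 0 of 10 were 2-fold higher and 0 of 10 were 2-fold lower, against 0.765% and 0.632% of 6010 genes. At 1.5-fold, 0 of 10 were higher and 0 of 10 lower in byMM1827, against 2.38% and 5.71%. The median of the 10 was 0.03 there, and 7 of 10 were above the median gene. In these bulk samples, fewer cells in a state such as S phase and less RNA per cell cannot be told apart.

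**Figure D2:**
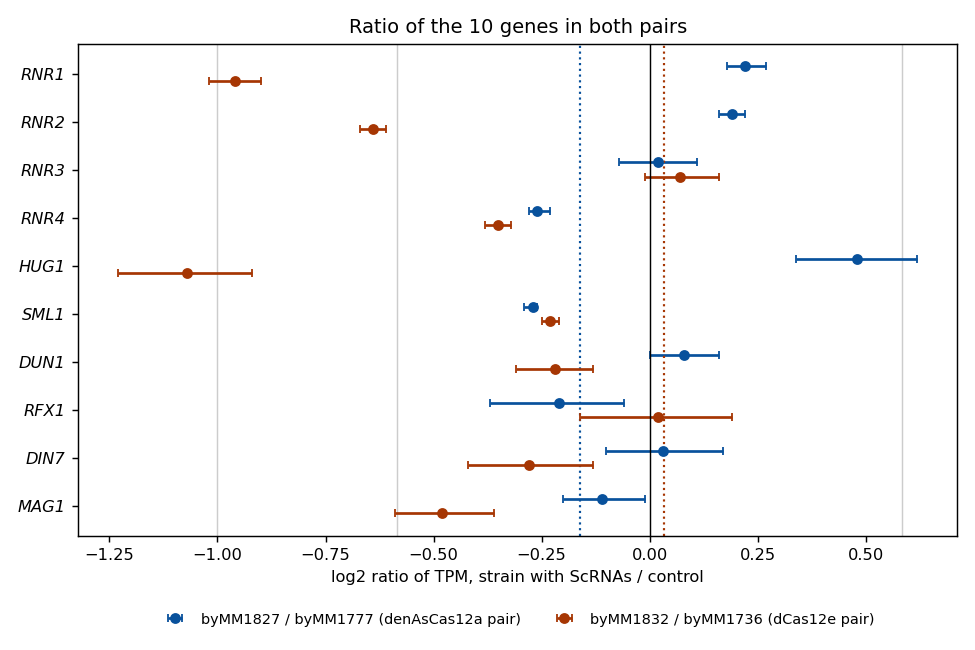
Log2 ratio of TPM of each gene between the strain with ScRNAs and its control (horizontal axis) in the denAsCas12a pair (blue) and the dCas12e pair (brown). Bars are 95% counting intervals, dotted lines mark the median gene of each pair (-0.16 and 0.03), and grey lines mark the 1.5-fold and 2-fold limits. RNR1, RNR2 and HUG1 lie to the left of the 1.5-fold limit in the dCas12e pair and to the right of 0 in the denAsCas12a pair, the last of these for RNR2 not when scaled by ACT1.

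RNR1, the main large subunit, had the largest range among the 10 genes. Its level was 63.97 TPM in byMM1777, 74.8 TPM in byMM1827, 45.1 TPM in byMM1736 and 23.2 TPM in byMM1832. Both denAsCas12a libraries were thus above both dCas12e libraries, and the highest level was 3.22-fold the lowest. In the dCas12e pair the ratio was 0.514 (0.492 to 0.537), and 2.83% of genes had a lower one. In the denAsCas12a pair it was 1.17 (1.13 to 1.21), which relative to the median gene is a log2 difference of 0.39. Against byMM1777, the control of the other pair, byMM1832 was at 0.363 (0.347 to 0.379).

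RNR3, the large subunit whose induction is a hallmark of the damage response, stood at nearly the same level throughout. It was at 17.9 TPM in byMM1777, 18.1 TPM in byMM1827, 16.9 TPM in byMM1736 and 17.7 TPM in byMM1832, a range of 1.07-fold from 1766 to 2610 counts. The ratio was 1.01 (0.953 to 1.08) in the denAsCas12a pair, as against 1.05 (0.992 to 1.11) in the dCas12e pair. Both intervals include 1. The genes with a pattern most like that of RNR3 over the 4 libraries, by the Euclidean distance of centred log2 TPM among 5730 other genes averaging 100 counts or more, were YMR253C, RSM24 and VAC14, at distances of 0.015 to 0.020. The other members ranked from 2495 (DIN7) to 5619 (RNR1) by this distance from RNR3. The distance was not scaled by range, so for a gene as level as RNR3 it largely reflects how far the other gene varied.

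RNR2 and RNR4, which form the small subunit, are among the more abundant transcripts of the set and did not share 1 pattern. RNR2 was at 298 TPM in byMM1777, 340 TPM in byMM1827, 351 TPM in byMM1736 and 225 TPM in byMM1832. Only byMM1832 stood below the others by more than the other 3 differed among themselves. The ratio of RNR2 was 0.642 (0.628 to 0.656) in the dCas12e pair and 1.14 (1.12 to 1.16) in the denAsCas12a pair, the latter a log2 ratio of 0.19 that became -0.03 relative to ACT1 and -0.05 against byMM1736. Against the other control, byMM1777, the level in byMM1832 was 0.755-fold (0.738 to 0.774), so the 1.5-fold limit was passed only with its own control. RNR4 was at 488 TPM in byMM1777, 408 TPM in byMM1827, 391 TPM in byMM1736 and 307 TPM in byMM1832. It was lower in both strains with ScRNAs than in their own controls, at 0.837 (0.821 to 0.853) in the denAsCas12a pair, compared with 0.786 (0.770 to 0.802) in the dCas12e pair. Relative to the median gene these are log2 differences of -0.10 and -0.38, and against byMM1736 the level in byMM1827 was 1.04-fold (1.03 to 1.06).

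Ratios between 2 genes of the same library do not depend on how libraries are scaled to each other, and they set the subunits and inhibitors side by side. The level of RNR1 was 3.58-fold that of RNR3 in byMM1777 (3.4 to 3.78), 4.13-fold in byMM1827 (3.96 to 4.31), 2.68-fold in byMM1736 (2.55 to 2.81) and 1.31-fold in byMM1832 (1.24 to 1.38). The large subunit paralogs were thus closest to equal in byMM1832. RNR2 stood at 0.612 of RNR4 in byMM1777, 0.832 in byMM1827, 0.898 in byMM1736 and 0.734 in byMM1832, so the ratio was higher in byMM1827 than in its control and lower in byMM1832 than in its control. The transcript of SML1, whose protein binds and inhibits Rnr1, was 65.6-fold that of RNR1 in byMM1777, 46.5-fold in byMM1827, 74.9-fold in byMM1736 and 124-fold in byMM1832. None of these 4 intervals overlaps another.

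**Figure D3:**
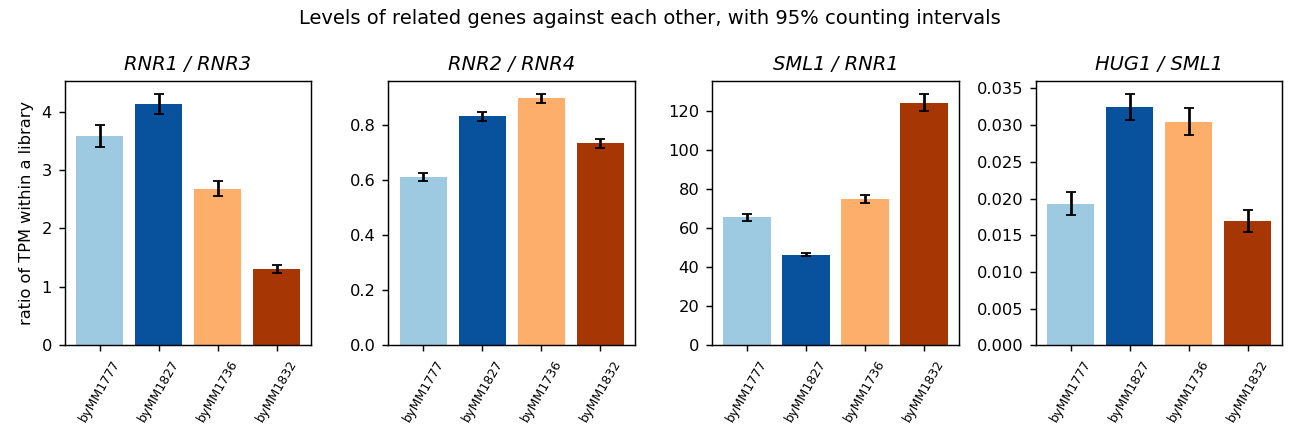
Ratio of TPM of 2 genes within each library (vertical axes, from 0), with 95% counting intervals as bars. RNR1/RNR3 is lowest in byMM1832 (1.31) and SML1/RNR1 is highest there (124), while HUG1/SML1 is high in byMM1827 and byMM1736 and low in byMM1777 and byMM1832.

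HUG1, a small protein related to Sml1 that binds the reductase and is strongly induced by DNA damage, differed in opposite directions in the pairs. It was at 81.0 TPM in byMM1777, 113 TPM in byMM1827, 103 TPM in byMM1736 and 48.9 TPM in byMM1832, from 489 to 1285 counts. The ratio was 1.39 (1.26 to 1.53) in the denAsCas12a pair, with 96.1% of genes below it, and 0.475 (0.427 to 0.529) in the dCas12e pair, with 2.15% of genes below it. The interval of the latter includes the 2-fold limit, so the call at 2-fold rests on the ratio itself and is lost when the whole interval has to lie past it. With the controls exchanged, the ratios were 1.10 (1.01 to 1.19) for byMM1827 and 0.604 (0.535 to 0.680) for byMM1832. The genes with the most similar pattern were PRX1, POX1 and SRX1, at distances of 0.199, 0.223 and 0.236; PRX1 encodes a mitochondrial peroxiredoxin, POX1 the peroxisomal acyl-CoA oxidase and SRX1 sulfiredoxin. Among the members RNR2 was closest to HUG1, at rank 58 of 5730, and RNR3 farthest, at rank 2285.

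SML1, the inhibitor of the reductase, is also encoded by 1 of the most abundant transcripts of these cells, at rank 24 to 39 among all genes. Its level was 4197 TPM in byMM1777, 3475 TPM in byMM1827, 3378 TPM in byMM1736 and 2882 TPM in byMM1832. The ratio was 0.828 (0.818 to 0.838) in the denAsCas12a pair, whereas it was 0.853 (0.843 to 0.864) in the dCas12e pair, and the controls differed by as much (0.805). HUG1 and SML1 are neighbours on the same strand, yet HUG1/SML1 went from 0.0193 in byMM1777 to 0.0325 in byMM1827, and from 0.0304 in byMM1736 to 0.0170 in byMM1832.

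The kinase gene DUN1, of middle rank among all genes (3112 to 3726), and the repressor gene RFX1, of low rank (5538 to 5655), stood higher in both denAsCas12a libraries than in both dCas12e libraries. DUN1, whose kinase acts on Sml1 and Rfx1, was at 34.8 TPM in byMM1777, 36.9 TPM in byMM1827, 28.2 TPM in byMM1736 and 24.1 TPM in byMM1832. Its ratio was 1.06 (1.0 to 1.12) in the denAsCas12a pair, as against 0.856 (0.805 to 0.911) in the dCas12e pair. RFX1 was at 6.78 TPM in byMM1777, 5.85 TPM in byMM1827, 4.31 TPM in byMM1736 and 4.35 TPM in byMM1832, from 515 to 788 counts. Its ratio was 0.863 (0.776 to 0.960) in the denAsCas12a pair, where the median gene was at 0.895, and 1.01 (0.895 to 1.14) in the dCas12e pair.

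DIN7 and MAG1 are damage-induced repair genes outside the reductase. DIN7, a nuclease of mitochondria whose protein is 54.2% identical to Exo1 over 430 aligned residues, was at 14.8 TPM in byMM1777, 15.1 TPM in byMM1827, 13.8 TPM in byMM1736 and 11.4 TPM in byMM1832. The ratio was 1.02 (0.930 to 1.13) in the denAsCas12a pair, compared with 0.826 (0.748 to 0.911) in the dCas12e pair. MAG1, the 3-methyladenine DNA glycosylase, was at 48.6 TPM in byMM1777, 45.1 TPM in byMM1827, 33.0 TPM in byMM1736 and 23.8 TPM in byMM1832. Its ratio was 0.929 (0.871 to 0.991) in the denAsCas12a pair, whereas it was 0.719 (0.664 to 0.779) in the dCas12e pair, while the controls differed by 0.680 (0.634 to 0.729). The log2 ratio of MAG1 in the denAsCas12a pair turned from -0.11 to 0.06 with TMM or median-ratio factors and to 0.45 against byMM1736. MAG1 shares a divergent promoter region of 282 bases with DDI1, which was at 280 TPM in byMM1777, 250 TPM in byMM1827, 233 TPM in byMM1736 and 200 TPM in byMM1832. The ratio of MAG1 to DDI1 went from 0.142 to 0.119 in the dCas12e pair, with intervals that do not overlap, and was 0.173 and 0.181 in the denAsCas12a pair, with intervals that do.

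The control libraries, which both lack ScRNAs, differed from each other by as much as the pairs did for several members. byMM1736 was at least 1.5-fold below byMM1777 for 1 of 10 genes (RFX1, 0.635), against 11.0% of 6010 genes, and above it for 0 of 10, against 2.51%. RNR1 (0.705) and MAG1 (0.680) were close to this limit. With the controls exchanged, 5 of 10 genes (RNR1, RNR4, HUG1, RFX1 and MAG1) were at least 1.5-fold lower in byMM1832 than in byMM1777, against 20.3% of genes, and 2 of 10 (RNR1 and MAG1) at least 2-fold lower, against 6.39%. byMM1827 was at least 1.5-fold above byMM1736 for 1 of 10 genes (RNR1, 1.66), against 2.25%. These comparisons share libraries with the pairs and are not independent of them. byMM1832 held the lowest of the 4 levels for 8 of 10 members and for 37.0% of all genes tested.

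**Figure D4:**
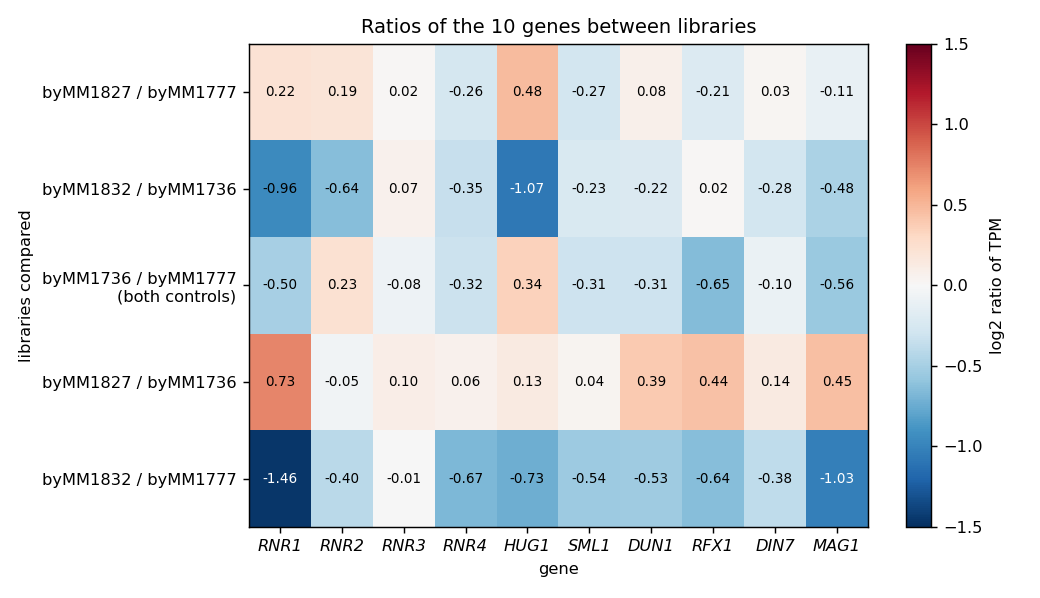
Log2 ratio of TPM (colour and number) of the 10 genes (columns) in the 5 comparisons of libraries (rows), the third being the controls against each other. RNR1 ranges from -1.46 to 0.73, and RNR3 stays between -0.08 and 0.10.

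The wider pathway gave the following counts, to be read against the 2.38% of all genes that were at least 1.5-fold higher and the 5.71% that were lower in the denAsCas12a pair, and the 4.48% and 6.97% in the dCas12e pair. Of the 8 other regulators of the reductase, 0 were past 1.5-fold in either direction in either pair, with medians of -0.19 (denAsCas12a pair) and -0.28 (dCas12e pair). TUP1, the co-repressor that acts with Rfx1, was at 0.836 and 0.866 in the pairs, and its partner CYC8 at 0.776 and 0.709. DIF1, a relative of Sml1 needed for nuclear import of Rnr2 and Rnr4, was at 1.2 (1.11 to 1.3) and 0.779 (0.727 to 0.835). WTM1, which anchors the small subunit in the nucleus, was at 0.947 and 0.731.

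Of 21 checkpoint genes, 0 were past 1.5-fold in the denAsCas12a pair, and 2 were lower by that much in the dCas12e pair, a share close to that of all genes. RAD53, the effector kinase above Dun1, was at 6.98 TPM in byMM1777, 6.69 TPM in byMM1827, 6.49 TPM in byMM1736 and 3.87 TPM in byMM1832. Its ratio was 0.959 (0.866 to 1.06) in the denAsCas12a pair, as against 0.597 (0.532 to 0.669) in the dCas12e pair. PPH3, a phosphatase that acts on Rad53, was at 0.733 and 0.604. MEC1, the kinase at the head of the pathway, was at 1.01 and 0.803. The median of the 21 genes was -0.29 in the denAsCas12a pair, compared with -0.13 in the dCas12e pair.

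Among the 9 other damage-induced genes reported here, 0 were 1.5-fold higher or lower in the denAsCas12a pair, while 1 was 1.5-fold lower and 0 were higher in the dCas12e pair, with medians of -0.03 and -0.02. DDR48, a stress-induced gene, was the one that was lower, at 0.565, and stood at 1.17 in the denAsCas12a pair. The other 7 of these 9 genes, DDI1 apart, lay between 0.767 and 1.18 in the denAsCas12a pair, and between 0.816 and 1.08 in the dCas12e pair.

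Of 16 DNA replication genes, 2 were at least 1.5-fold higher in the denAsCas12a pair, RFA3 (1.61) of the single-strand binding complex RPA and POL30 (1.54), the sliding clamp. Against byMM1736, the control of the other pair, 0 of the 16 were at least 1.5-fold higher in byMM1827. 3 were at least 1.5-fold lower in the dCas12e pair, POL1 (0.563) and POL2 (0.649), catalytic subunits of replicative polymerases, and the S phase cyclin CLB6 (0.589). In that pair 14 of 16 were below 1, as were 2762 of the 6009 genes with a ratio. The median of the 16 replication genes was -0.07 in the denAsCas12a pair, whereas it was -0.30 in the dCas12e pair. In the dCas12e pair the members had a median of -0.31 and the 8 other regulators of the reductase 1 of -0.28. The 6 other genes of deoxyribonucleotide supply, with 0 past 1.5-fold, had medians of -0.11 and 0.15. In the dCas12e pair 4 of the 6 had a ratio above 1, as did 3247 of the 6009 genes with a ratio. Of 7 base excision and alkyl repair genes, OGG1, the 8-oxoguanine glycosylase, was 1.5-fold lower in the denAsCas12a pair (0.663) and none was past this limit in the dCas12e pair. OGG1 was at 16.5 TPM in byMM1777, 11.0 TPM in byMM1827, 10.2 TPM in byMM1736 and 9.72 TPM in byMM1832. Its call thus rests on the control byMM1777. The 7 mismatch repair genes had 0 past the limit in both pairs, with EXO1 at 0.896 and 0.901, and of the 7 nucleotide excision repair genes RAD16 alone was past it, at 0.560 in the dCas12e pair.

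General stress genes were measured beside the members. Of 10 such genes, 8 were lower in byMM1832 than in byMM1736, as were 2762 of the 6009 genes with a ratio. Of these 8, 6 were at least 2-fold lower (2.65% of all genes tested). The median of the list was -1.11, against 0.03 for all genes tested. HSP26, a small heat shock protein, was at 0.258, the stress gene DDR2 at 0.299, PGM2, a phosphoglucomutase, at 0.338 and HSP12, a membrane-associated stress protein, at 0.357. In the denAsCas12a pair HSP12 was at 1.71, DDR2 at 0.797, and the list's median was -0.01, with 5 genes above 1 and 5 below. Of all 6010 genes tested, 1704 were above 1 in that pair, and the median of all was -0.16. Of 8 ribosome biogenesis genes, with medians of -0.30 and 0.14, NSR1, a nucleolar protein, was past 1.5-fold at 0.544 in the dCas12e pair. The part of the stress genes, of growth or of the cell cycle in the levels of the reductase genes was not tested.

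**Figure D5:**
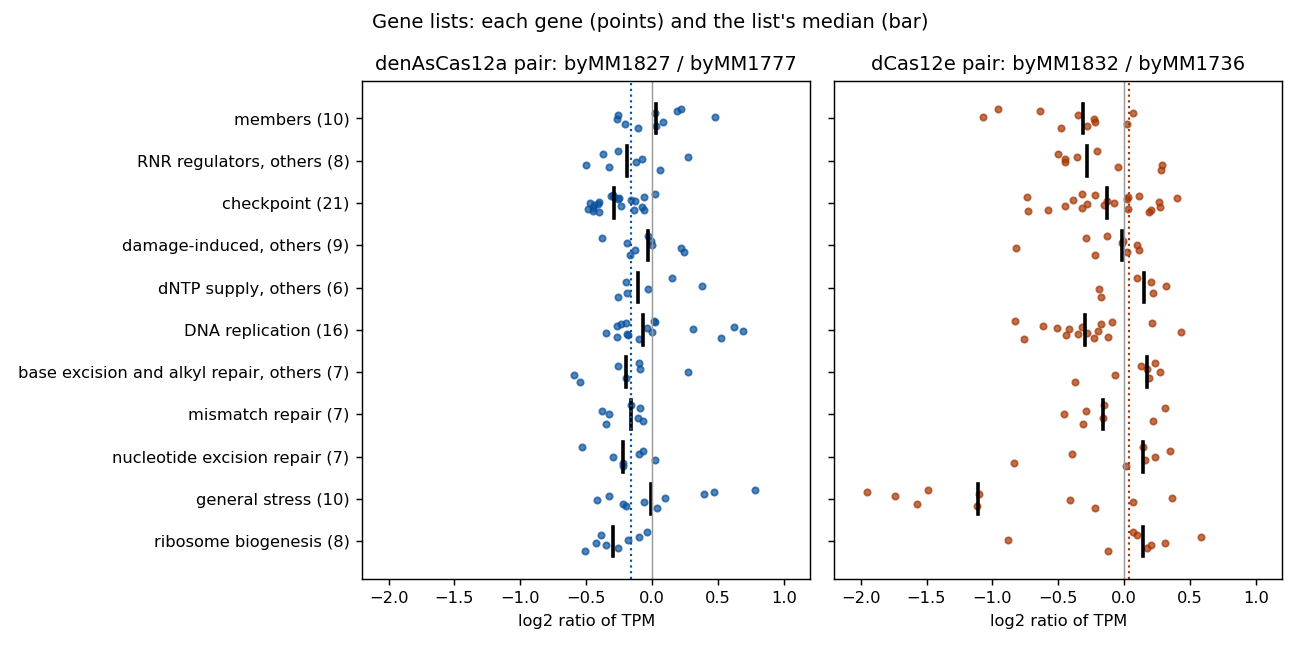
Log2 ratio of TPM of each gene (points) and median (black bars) of the 10 genes described here (members) and of 10 other lists, in the denAsCas12a pair and the dCas12e pair, with the number of genes in parentheses and the median gene of all tested as a dotted line. The general stress genes have the lowest median in the dCas12e pair (-1.11), followed by the members (-0.31) and DNA replication genes (-0.30).

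The ratios are set here beside the sites in the promoters, whose part in the ratios was not tested. In the dCas12e pair the 5 members with a core site GTTGCC had log2 ratios of -1.07 (HUG1), -0.96 (RNR1), -0.64 (RNR2), -0.35 (RNR4) and 0.07 (RNR3), and the 5 without one had ratios from -0.48 (MAG1) to 0.02 (RFX1). RNR2, HUG1 and RNR3 all carry the core sites printed above. Their windows were picked for their unlike ratios, so the contrast among these genes follows from that choice. Over all 979 tested genes with the core site, 7.46% were at least 1.5-fold lower in the dCas12e pair, with a median of 0.03, against 6.83% of the 5873 tested genes with a promoter searched. Of the 372 tested genes with ACGCGT, 9.68% were lower and 2.42% higher by this limit, with a median of -0.06, and 4.26% of all 5873 were higher. In the denAsCas12a pair the medians were -0.15 with the core site, -0.13 with ACGCGT and -0.16 for all.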

How the data were processed

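RNA was extracted with Trizol from 4 strains grown after dilution of overnight cultures, and libraries were made with the Hieff NGS MaxUp mRNA kit. The authors deposited unnormalized counts (whole numbers) and a table in TPM, in which the deposited counts were divided by a length and scaled per library. For 96.9% of 5958 coding genes this length was within 1% of the coding length. The submitters' processing notes name FastQC, Trimmomatic, HISAT2, bedtools, StringTie and DESeq2, with no version or role. The genome build and whether counting used strand are not given in the sources used here. Both tables list 6418 genes, 3 lines were emptied before use, and 2 columns of other strains were not used. The authors' tables of pairwise comparisons (TPM, log2 fold change, p-value, q-value and call) were not used.

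Ratios were taken from the TPM without a pseudocount, among the 6010 genes averaging 10 counts or more. A library at or under 3 counts was set at the value of 3 counts, and no ratio was given where both were. The 95% exact Clopper-Pearson intervals come from the counts and cover counting error only, since reads of amplified libraries are not independent molecules. With 1 library per strain, a ratio at least 2-fold or 1.5-fold from 1 served as the call, and no test was run. Lists were described by counts and medians. The members and the lists were chosen with earlier results of these data known. All 10 members were named, and of the other lists those genes past 1.5-fold in a pair with the interval off 1 (at most 4 per list and pair), TUP1, CYC8, DIF1, WTM1, RAD53, MEC1, DDI1 and EXO1, and the checks HIS3, HED1, GAL7 and ACT1. 1 gene of the damage-induced list is not reported here and was left out of that list. CTT1 and SOL4 of the general stress list fell outside this limit of 4.

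Sequences, positions and proteins for alignment (global, BLOSUM62, Biopython 1.88) came from the RefSeq reference R64 of S288C, whereas the strains derive from CEN.PK2-1C. Ratios and intervals were checked on simulated counts. Alternatives were other scalings (counts per total, TMM of edgeR 4.0.16, median-ratio factors of DESeq2 1.42.0, ACT1), pseudocounts, thinning of the counts to 37275559 per library, other limits and the control of the other pair. Values were computed in Python 3.11.15 (numpy 2.4.6, pandas 2.3.3, scipy 1.17.1) and R 4.3.3.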

Additional observations from a re-analysis of the deposited data

Results flagged for a closer look

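HUG1, RNR1 and RNR2 had counting intervals on opposite sides of 1 in the pairs, higher in byMM1827 and lower in byMM1832 than in their controls. Only genes named in the text were examined for this, and the share of all genes that meet it was not counted. At these depths an interval can be off 1 for a small ratio, such as 1.14 for RNR2 in the denAsCas12a pair. The log2 ratio of the dCas12e pair minus that of the denAsCas12a pair was -1.55 for HUG1, -1.18 for RNR1 and -0.83 for RNR2. Relative to the median gene of each pair the directions were the same. The difference between the pairs was not tested, since each rests on 4 libraries with 1 per strain, and the direction of RNR2 in the denAsCas12a pair turned to -0.03 relative to ACT1 and to -0.05 against the other control. RNR1 in that pair was at 0.01 relative to ACT1.

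For 6 other genes named above the intervals were also on opposite sides of 1, with the same directions relative to the median gene. The differences were -2.43 for HSP26 and -2.27 for HSP12 of the general stress list, -1.04 for DDR48 of the damage-induced genes, -0.93 for POL30 and -0.89 for RFA3 of the replication genes, and -0.63 for DIF1. These were not tested either. In byMM1827, DDR48 (638 TPM) and DIF1 (81.6 TPM) were below their levels in byMM1736 (667 and 91.5 TPM), the control of the other pair. HSP26, HSP12, POL30 and RFA3 were above theirs.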

How the results depend on the processing

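No direction of RNR1, RNR2 or HUG1 in the dCas12e pair changed under the 8 alternatives of scaling, pseudocount, thinning and control, with log2 ratios from -1.46 to -0.93 for RNR1, from -0.74 to -0.40 for RNR2 and from -1.17 to -0.73 for HUG1. All but the exchanged control reuse the same libraries. They shifted the median gene of this pair by -0.098 at most (relative to ACT1), so they could hardly have changed these directions. In the denAsCas12a pair, HUG1 ranged from 0.13 to 0.64 and RNR1 from 0.01 (relative to ACT1) to 0.73, while RNR2 ranged from -0.05 to 0.35. The number of members at least 2-fold lower in the dCas12e pair was 1 (2.65% of all genes), and it was 2 relative to ACT1 (3.2%) or with the other control (6.39%), 0 at 3-fold and 0 when the counting interval had to lie past the limit. The number at least 1.5-fold lower was 3 (6.97%), and 5 with the other control (20.3%). In the denAsCas12a pair, the number at least 1.5-fold higher was 0 (2.38%), and 1 with TMM factors (4.89%), with median-ratio factors (4.94%) or with the other control (2.25%). TMM factors shifted the median gene of the denAsCas12a pair by 0.16 on the log2 scale, median-ratio factors by 0.17 and ACT1 by -0.22. Of all genes past 1.5-fold in that pair, 29.4% were higher (143 higher, 343 lower) as deposited, 71.5% with TMM factors (294 and 117), 72.3% with median-ratio factors (297 and 114), 5.05% relative to ACT1 (67 and 1260) and 68.9% with the other control (135 and 61). In the dCas12e pair, 39.1% were higher (269 and 419), 21.3% relative to ACT1 (156 and 576) and 23.8% with the other control (381 and 1222). At 2-fold in the denAsCas12a pair, 54.8% were higher, 77.2% with TMM factors, 78.2% with median-ratio factors and 21.1% relative to ACT1. The median log2 ratio of the 10 members lay between -0.19 and 0.19 in the denAsCas12a pair, and between -0.59 and -0.30 in the dCas12e pair.

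Leaving out a replicate could not be done, since each group has 1 library. No paired analysis was possible because each group has 1 library and no test was run. The least deep member values rest on 489 counts (HUG1) and 515 counts (RFX1) in byMM1832, which sets the width of their intervals. The spread between cultures of 1 strain is unknown here.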
